A study of Mus musculus with 8 samples.

Results

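Receptor genes for glutamate, GABA and glycine were examined in MB21, a line of mouse medulloblastoma cells labelled as Ptch mutant. The members described are 48 of the 55416 genes in the deposited table, protein-coding genes whose symbols match the names of the ionotropic and metabotropic glutamate receptor, GABA-A, GABA-B and glycine receptor families. The choice used symbols and the protein-coding type, and some genes of these families are not reported here and are left out. The 48 members comprise 17 ionotropic glutamate receptor genes, 7 metabotropic glutamate receptor genes, 16 GABA-A genes, 2 GABA-B genes and 5 glycine receptor genes. The remaining member, Grid2ip, encodes delphilin, a scaffold protein of glutamate receptors and not itself a receptor. The treated cells, called DS38 here, had 10 uM DS-1-38, a compound derived from benzarone, for 5 days, and the control cells, called DMSO, had the vehicle alone for the same time. Both groups were the same Ptch mutant line grown unattached with B27 supplement, each with 4 messenger RNA libraries, of 17142397 to 28476019 counts for DS38 and 18878556 to 25582159 counts for DMSO. All 8 libraries are of this 1 line. The labels do not say that the libraries came from separate cultures, so p-values measure the spread between these libraries, which may be technical.

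Ionotropic receptors are channels that open when transmitter binds, admitting cations at glutamate receptors and chloride at GABA-A and glycine receptors. Metabotropic glutamate receptors and GABA-B receptors signal through G proteins. Most of these receptors are assembled from several subunits, so which subunit genes a cell transcribes limits which receptors it can build. Medulloblastoma of the Hedgehog subgroup arises from cerebellar granule neuron progenitors. Mature granule neurons are known for Gabra6, Gabrd and Grin2c, which appear as these cells differentiate.

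Of the receptor genes described and kept by the filter on low counts, 7 changed with the compound, by at most 1.76-fold. Gria3, Grik3, Gabrb2 and Gabbr1 rose, and Grin2a, Grik2 and Glrb fell. Gabrr2, a scarcer gene under the filter, is given below. Of the 48 members, 21 were kept by the filter on low counts, 23 had too few counts and 4 had none. In edgeR's quasi-likelihood test, with p-values adjusted by the Benjamini-Hochberg method and a threshold of 0.05, 4 of the 21 were higher with DS38, 3 were lower and 14 did not pass. These 7 called members are 33.3% of those tested, beside 39.5% of all 15133 genes tested, of which 18.8% were called higher and 20.7% lower. The share of members called was thus near the background or below it. Over all genes 2840 were higher and 3140 lower, against 3915 and 2171 with scaling to plain library totals. CPM below is the count scaled to the TMM-adjusted library total. Among genes with a mean under 5 CPM, 2 of 10 members (20%) were called, beside 22.0% of all genes. At 5 CPM and over, 5 of 11 members (45.5%) were called, beside 47.0% of all genes. The median log2 fold change of DS38 over DMSO was 0.15 for the 21 members, 0.07 for the 20 without the scaffold gene Grid2ip, and -0.01 for all genes tested. The median size of the change, regardless of sign, was 0.21 for the 21 members and 0.18 for all genes. In a bulk sample, fewer cells with a transcript and less of it per cell cannot be told apart.

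**Figure D1:**
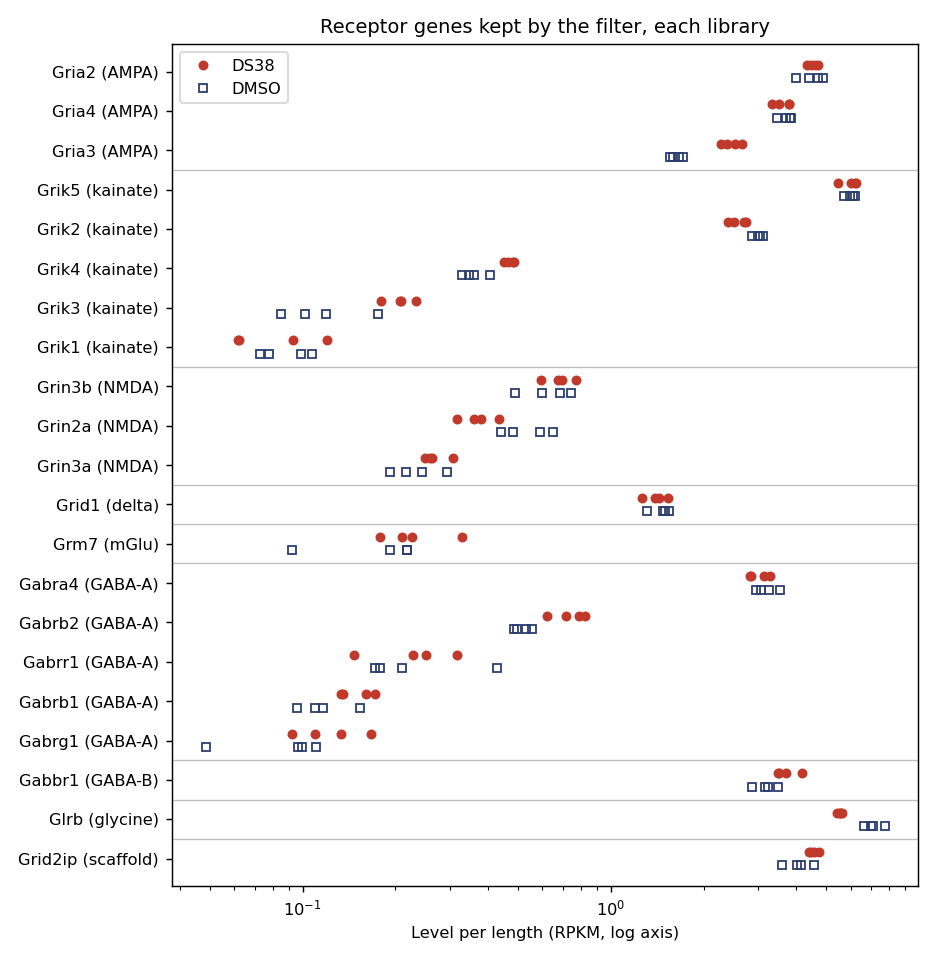
Level per length (RPKM, log axis) of the 21 genes kept by the filter, grouped by receptor class, with filled circles for the 4 DS38 libraries and open squares for the 4 DMSO libraries. Glrb, Grik5 and Gria2 stood highest among these receptor genes, and the circles of Gria3 lay clear of its squares.

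Levels per length, as CPM per kilobase of the deposited gene length (RPKM), set the order of the genes within a library. Glrb led the genes described in DMSO, at 7.12 ± 0.463 RPKM. Grik5 led them in DS38, at 5.99 ± 0.36 RPKM (SD, n = 4 each). Glrb stood at 5.54 ± 0.0963 RPKM in DS38, and Grik5 at 6.0 ± 0.222 RPKM in DMSO, so the means of the leading pair changed places. In DS38 the gap between Grik5 and Glrb was little more than the SD of Grik5. Gria2 came next, at 4.52 ± 0.155 RPKM in DS38 and 4.5 ± 0.386 RPKM in DMSO. Gria4, Gabbr1, Gabra4, Grik2, Gria3 and Grid1 followed, with means over all libraries from 3.65 down to 1.43 RPKM. Among them, Gria4 and Gabbr1 did not differ beyond their spread in DS38, at 3.60 ± 0.221 and 3.72 ± 0.328 RPKM. Every other receptor gene described here was under 1 RPKM on average. Summed over the 47 receptor genes the level was 37.1 ± 0.835 RPKM in DS38 and 37.4 ± 0.83 RPKM in DMSO, a difference smaller than the spread in either group.

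For 4 of the called genes the RefSeq table gave a single start, and the 250 bases before it are shown because they include a gene that rose and a gene that fell within the kainate family. The windows are on GRCm38.p6, 5′ to 3′ on the gene's own strand, at chr4:125490446-125490695 (plus strand) for Grik3, chr17:37045716-37045965 (plus) for Gabbr1, chr10:49788755-49789004 (minus) for Grik2 and chr3:80913661-80913910 (minus) for Glrb. Capitals mark GC boxes, the motif GGGCGG on either strand.
Grik3: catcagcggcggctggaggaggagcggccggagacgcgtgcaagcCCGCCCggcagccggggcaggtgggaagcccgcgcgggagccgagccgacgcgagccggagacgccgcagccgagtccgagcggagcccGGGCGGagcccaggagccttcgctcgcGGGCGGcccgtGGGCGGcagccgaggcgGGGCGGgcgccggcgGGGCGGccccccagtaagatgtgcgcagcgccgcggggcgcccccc
Gabbr1: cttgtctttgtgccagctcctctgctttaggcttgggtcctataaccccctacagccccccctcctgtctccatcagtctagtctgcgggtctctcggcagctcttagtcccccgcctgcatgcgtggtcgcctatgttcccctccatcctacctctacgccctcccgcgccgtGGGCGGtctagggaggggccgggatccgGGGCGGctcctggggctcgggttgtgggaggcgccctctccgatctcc
Grik2: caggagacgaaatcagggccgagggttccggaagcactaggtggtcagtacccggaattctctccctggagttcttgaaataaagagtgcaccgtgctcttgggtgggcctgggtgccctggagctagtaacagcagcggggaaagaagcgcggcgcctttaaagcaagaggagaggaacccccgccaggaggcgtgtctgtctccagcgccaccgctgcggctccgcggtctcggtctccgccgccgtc
Glrb: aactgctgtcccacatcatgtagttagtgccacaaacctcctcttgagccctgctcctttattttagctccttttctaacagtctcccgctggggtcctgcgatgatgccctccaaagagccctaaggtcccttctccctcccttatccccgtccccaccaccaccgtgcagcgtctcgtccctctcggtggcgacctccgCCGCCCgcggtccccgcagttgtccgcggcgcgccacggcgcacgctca
Grik3 held 6 GC boxes and a GC content of 82.0%, and Grik2 held 0 and 62.8%. Gabbr1 held 2 GC boxes and Glrb 1. Of 32851 RefSeq promoter windows of the same length, 32.7% held a GC box, and their median GC content was 52.4%. An E-box (CAGCTG), a cyclic AMP response element (TGACGTCA), a Gli motif (GACCACCCA), a Cebp-Atf response element (TGATGNAA) and a TATA box (TATAAA) were also searched on both strands. None of these was found in the 4 windows, beside 13%, 1.55%, 0.225%, 3.45% and 12.4% of all windows. Gabrb2 had 3 starts in the table, and the window of the first held a TATA box and 1 GC box. The bases after that start were not matched to an annotated transcript of the gene. Those after the last start were, and its window held none of the motifs. The GC box was added to the search after the sequences were seen. A match or its lack describes letters only.

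AMPA receptors carry most fast excitatory transmission, and of their 4 subunit genes 3 were tested and Gria3 passed. Gria3 (ENSMUSG00000001986) had 23.5, 26.3, 25.0 and 22.4 CPM in the DS38 libraries, against 16.4, 15.7, 16.9 and 15.3 CPM in the DMSO libraries. Every DS38 library lay above every DMSO library, and the spread within a group was small beside the gap. The rise was 1.51-fold (log2 fold change 0.60 with an SE of 0.067, adjusted p 1.44e-06 by edgeR). Gria2, whose edited form keeps calcium out of the channel, had 72.9, 67.4, 71.5 and 69.3 CPM in DS38, against 75.8, 68.6, 62.2 and 73.3 CPM in DMSO. The groups overlapped, and an interval of 2 SE either side of its log2 fold change ran from -0.11 to 0.11 (edgeR adjusted p = 0.973). Gria4 had 23.9, 23.8, 22.1 and 21.0 CPM in DS38, against 21.8, 23.3, 24.0 and 24.3 CPM in DMSO, with an interval from -0.16 to 0.09 (edgeR adjusted p = 0.708). Gria1, a main subunit of the adult forebrain, had 3 counts over the DS38 libraries and 2 over the DMSO libraries. Gria3 therefore made up 21.9% to 24.7% of the summed AMPA level per length in DS38, against 15.3% to 18.0% in DMSO. The summed level itself was 10.6 ± 0.353 RPKM in DS38 and 9.84 ± 0.275 RPKM in DMSO.

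All 5 kainate receptor genes were kept by the filter, and 2 of them changed, in opposite directions. Grik2 and Grik3 encode subunits that can form channels on their own, whereas Grik4 and Grik5 encode subunits that need a partner. Grik2 (ENSMUSG00000056073) had 36.5, 33.2, 35.8 and 31.8 CPM in DS38, against 41.2, 38.1, 40.4 and 39.9 CPM in DMSO. All DS38 libraries lay below all DMSO libraries, a fall of 1.16-fold (log2 fold change -0.22 with an SE of 0.054, adjusted p 0.00354 by edgeR). Grik3 (ENSMUSG00000001985), a much scarcer transcript, had 2.09, 1.86, 1.61 and 1.87 CPM in DS38, against 0.762, 0.913, 1.58 and 1.07 CPM in DMSO. The groups did not overlap, though the highest DMSO library, replicate 3, came close to the lowest DS38 library. Grik3 showed the largest fitted change of the 21, 1.76-fold (log2 fold change 0.82 with an SE of 0.229, adjusted p 0.00839 by edgeR). That call was lost when both libraries numbered 1 were left out (adjusted p = 0.062).

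The partner genes did not pass. Grik5 had 32.4, 28.3, 31.2 and 32.0 CPM in DS38, against 32.0, 30.9, 29.5 and 31.7 CPM in DMSO, with overlapping groups and an interval of the log2 fold change from -0.12 to 0.11 (edgeR adjusted p = 0.945). Grik4 had 2.68, 2.89, 2.77 and 2.86 CPM in DS38, against 2.41, 1.96, 2.07 and 2.14 CPM in DMSO. Its groups did not overlap, and its log2 fold change was 0.38 ± 0.154 SE (edgeR adjusted p = 0.056), just outside the threshold. Of the 21 tested members, 7 had groups that did not overlap, beside 36.1% of all genes tested. These were Grik4 and every called gene except Gabbr1, with 4 above the DMSO libraries and 3 below them. Grik1, at 0.566 ± 0.188 CPM in DS38 and 0.599 ± 0.112 CPM in DMSO, did not pass (log2 fold change -0.15, edgeR adjusted p = 0.733).

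**Figure D2:**
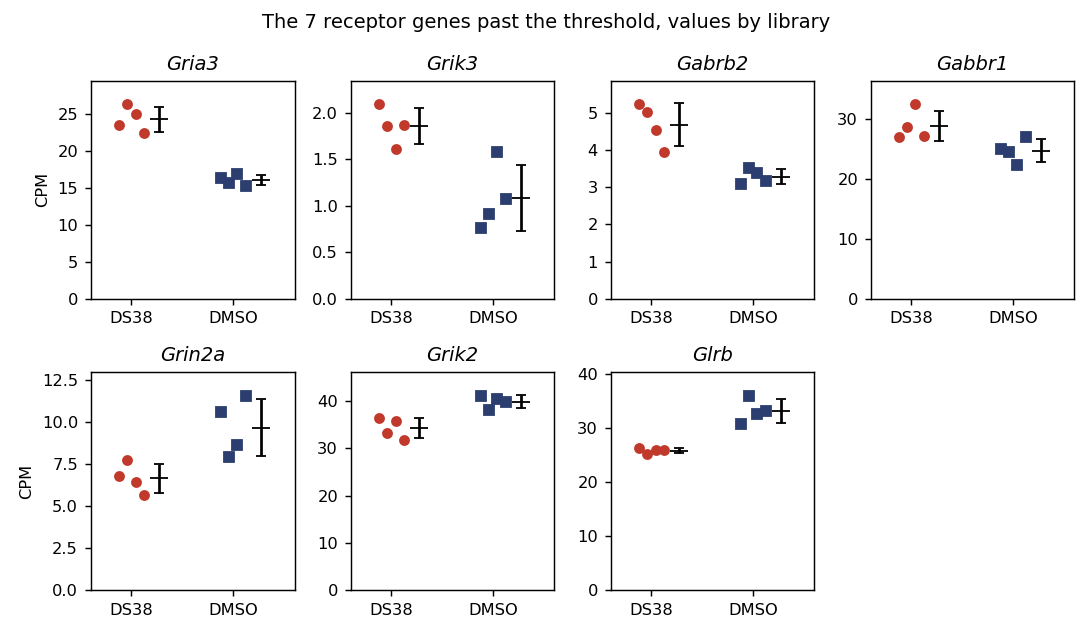
CPM by library of the 7 receptor genes past the threshold, with DS38 as circles and DMSO as squares, and the mean with its SD beside each group. Gria3, Grik3 and Gabrb2 lay higher in every DS38 library than in any DMSO library, Grin2a, Grik2 and Glrb lower, and only Gabbr1 overlapped.

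NMDA receptors need the glycine-binding subunit of Grin1 together with glutamate-binding Grin2 or glycine-binding Grin3 subunits. Grin1 was close to silence, with 8, 8, 8 and 11 counts in the DS38 libraries, against 4, 6, 8 and 9 counts in the DMSO libraries, and fell under the filter. Grin2a (ENSMUSG00000059003) was the best expressed Grin2 gene and had 6.78, 7.78, 6.45 and 5.67 CPM in DS38, against 10.6, 7.91, 8.64 and 11.6 CPM in DMSO. The highest DS38 library lay just below the lowest DMSO library, and the fall was 1.44-fold (log2 fold change -0.52 with an SE of 0.126, adjusted p 0.0032 by edgeR). Grin2b, the Grin2 gene typical of immature neurons, had 7 counts over the DS38 libraries and 1 over the DMSO libraries. Grin2c, the gene of mature granule neurons, had 10 and 6 counts, and Grin2d had 34 and 27. Grin3a (0.20, edgeR adjusted p = 0.331) and Grin3b (0.15, edgeR adjusted p = 0.537) did not pass, with their log2 fold changes in brackets. Grin3b exons overlap those of the far more abundant Tmem259 on the opposite strand, which had 8028 counts over the libraries. Since the strand setting of the counting is not given in the sources used here, the level of Grin3b is uncertain. Grin2a made up 23.3% to 27% of the summed NMDA level per length in DS38, against 30.1% to 40.1% in DMSO, shares that include the uncertain Grin3b.

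Delta receptors bind cerebellins, the synaptic organiser proteins made by granule neurons, and Grid1 did not pass. It stood at 8.39 ± 0.673 CPM in DS38 and 8.68 ± 0.594 CPM in DMSO (edgeR adjusted p = 0.753). Grid2ip, the scaffold gene, had 32.2, 30.3, 29.9 and 30.9 CPM in DS38, against 28, 24.3, 27.2 and 30.9 CPM in DMSO, and missed the threshold (log2 fold change 0.16 with an SE of 0.065, adjusted p 0.0546 by edgeR).

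The metabotropic glutamate receptor genes described had few counts. Of the 7 described only Grm7, an inhibitory presynaptic receptor gene, was kept by the filter. It had 1.05, 1.24, 1.33 and 1.93 CPM in DS38, against 1.28, 1.13, 0.544 and 1.28 CPM in DMSO, overlapping groups that did not pass (log2 fold change 0.34 with an SE of 0.267, adjusted p 0.329 by edgeR). Grm4, known from the axons of mature granule neurons, had 9, 7, 4 and 2 counts in DS38, against 6, 5, 3 and 1 counts in DMSO. Exons of Grm7 and Grid2ip also overlap those of other annotated genes, with 245 and 197 counts over the libraries for Gm20387 and Gm20635, so reads may be shared. Exons of Gria2, Gria3, Gria4, Grid1 and Grik4 overlap annotated genes on the same strand, for which no counts are available here. Grm3, which signals through inhibitory G proteins, had 1, 2, 1 and 4 counts in DS38, against 0, 0, 0 and 1 count in DMSO. Grm2, Grm5 and Grm8 had from 2 to 9 counts over the 8 libraries. Grm6, the receptor of retinal bipolar cells, had 0 counts, a result that leaves room for 0.175 CPM in the library of lowest total (3 counts of that total, counting error only).

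**Figure D3:**
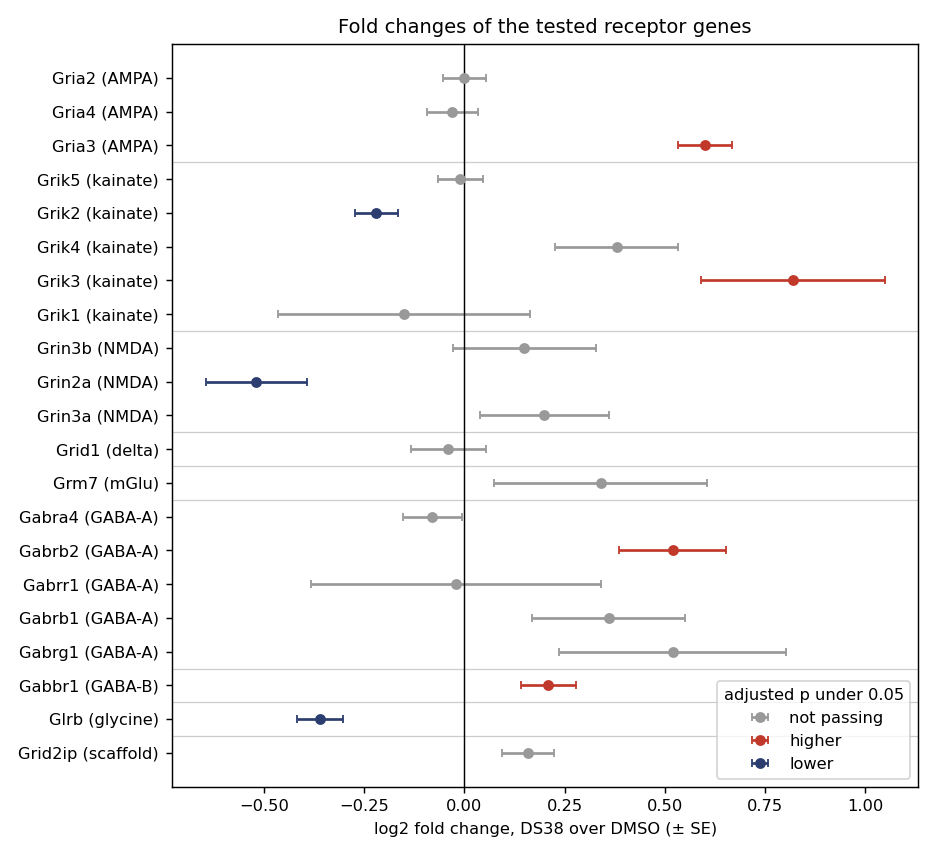
log2 fold change of DS38 over DMSO with its SE for the 21 tested genes, grouped by class and coloured by call at an adjusted p under 0.05. Changes ran from -0.52 for Grin2a to 0.82 for Grik3, and the kainate family held a gene that rose and a gene that fell.

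GABA-A receptors are pentamers, usually of alpha, beta and gamma or delta subunits. Of the 16 genes described 5 were tested, and 1 of them, Gabrb2, passed. Gabrb2 (ENSMUSG00000007653), a beta subunit gene, had 5.23, 5.02, 4.55 and 3.95 CPM in DS38, against 3.09, 3.52, 3.37 and 3.16 CPM in DMSO. All DS38 libraries were above all DMSO libraries, a rise of 1.44-fold (log2 fold change 0.52 with an SE of 0.133, adjusted p 0.0043 by edgeR).

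Of the 16 GABA-A genes described, Gabra4 was the best expressed. It took more than any other of their summed level, 62.1% to 68.7% in DS38 and 70.4% to 76.7% in DMSO. It had 17.2, 20, 19.1 and 17.4 CPM in DS38, against 18.7, 21.5, 18.0 and 19.9 CPM in DMSO, and did not pass (interval of the log2 fold change -0.23 to 0.07, edgeR adjusted p = 0.404). Gabrr1, a rho subunit gene, had 0.335, 0.723, 0.576 and 0.52 CPM in DS38, against 0.481, 0.391, 0.979 and 0.408 CPM in DMSO. The remaining tested genes, Gabrb1 and Gabrg1, had means from 0.698 to 2.08 CPM, and with Gabrr1 they had edgeR adjusted p-values from 0.145 to 0.978. Exons of Gabra4 and Gabrb1 overlap on opposite strands, so the much lower Gabrb1 is uncertain. Gabra6 had 0 counts over the DS38 libraries and 1 over the DMSO libraries, and Gabrd had 6 and 10 counts. Gabra5, Gabre and Gabrq had 0 counts in all libraries. Gabra2, Gabra3, Gabrg3, Gabrp and Gabrr3 had from 1 to 25.

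Many GABA-A genes lie in clusters. On chromosome 11, Gabrb2 was called higher, as given above, and Gabra6, next to it among the members, was under the filter. In the cluster on chromosome 5, Gabrg1, Gabra4 and Gabrb1 were tested and did not pass, and Gabra2 was under the filter. The chromosome X genes Gabre, Gabra3 and Gabrq had 1 count among them.

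**Figure D4:**
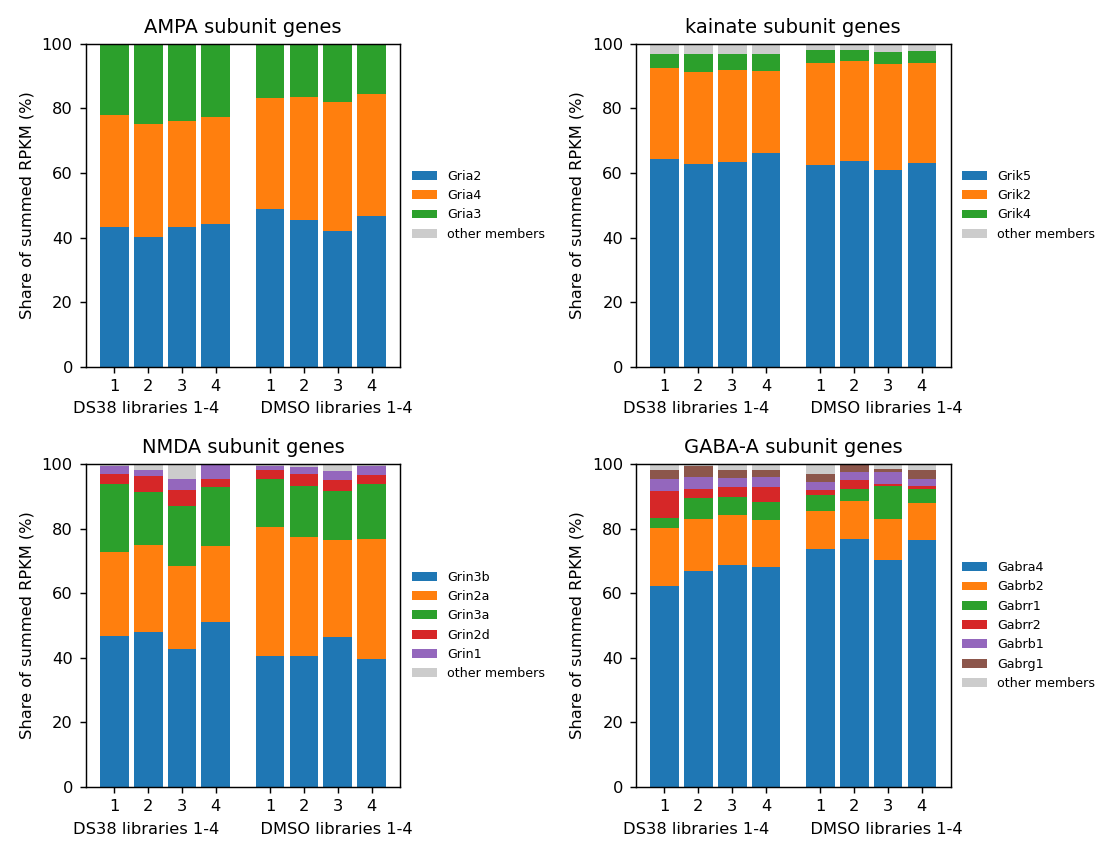
Share of each subunit gene in the summed level per length (RPKM) of the genes described in its family. The 4 DS38 libraries are on the left of each panel and the 4 DMSO libraries on the right. Gria3 took 21.9% to 24.7% of the AMPA level in DS38 and 15.3% to 18.0% in DMSO. Gabra4 took more than any other GABA-A gene described in every library.

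GABA-B receptors are obligate dimers, in which the product of Gabbr1 binds GABA and that of Gabbr2 couples to the G protein. Gabbr1 (ENSMUSG00000024462) had 27, 28.7, 32.5 and 27.2 CPM in DS38, against 25.1, 24.6, 22.3 and 27.1 CPM in DMSO. The groups overlapped at their edges, and the rise was small, 1.16-fold (log2 fold change 0.21 with an SE of 0.069, adjusted p 0.0207 by edgeR). The call was lost without DS38 replicate 3 (adjusted p = 0.0723) or DMSO replicate 3 (0.0808). Gabbr2 had 12, 13, 5 and 12 counts in DS38, against 8, 3, 7 and 3 counts in DMSO, and fell under the filter. Gabbr1 held at least 97.4% of the GABA-B level per length in each DS38 library and at least 98.1% in each DMSO library.

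Glycine receptors pair channel-forming alpha subunits with the beta subunit of Glrb, which binds the scaffold protein gephyrin and does not form channels alone. Glrb (ENSMUSG00000028020) had 26.2, 25.2, 25.9 and 25.9 CPM in DS38, against 30.8, 36.0, 32.6 and 33.1 CPM in DMSO. The DS38 libraries lay close together and below every DMSO library, a fall of 1.29-fold (log2 fold change -0.36 with an SE of 0.057, adjusted p 6.38e-05 by edgeR). Gphn, the gephyrin gene, is described with the scaffolds. The alpha genes were nearly silent. Glra2 had 2, 12, 3 and 3 counts in DS38, against 7, 5, 4 and 4 counts in DMSO. Glra4 had 6, 2, 3 and 2 counts in DS38, against 4, 1, 2 and 1 counts in DMSO, and Glra1 and Glra3 had 1 count each over all libraries.

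Among the 23 members with counts but under the filter, 18 had more counts in DS38 than in DMSO, 4 had fewer and 1 had as many, with 277 counts in DS38 and 170 in DMSO in all. The raw totals of the groups were nearly equal, at 87725019 counts for DS38 and 87835704 for DMSO. TMM factors were 1.014 to 1.032 for DS38 and 0.9753 to 0.9835 for DMSO. The TMM-adjusted totals were thus slightly larger for DS38, and these raw counts are not adjusted for that. A tilt to DS38 was general for scarce transcripts, since 63.6% of all 15799 genes under the filter had more counts in DS38, beside 78.3% of these members. In the edgeR fit on all genes with a count, 1 of the 23 passed, beside 2.18% of all genes under the filter. This was Gabrr2, a rho subunit gene known from the retina, with 19, 9, 5 and 8 counts in DS38, against 3, 6, 1 and 2 counts in DMSO. Scaled to library size the groups did not overlap, and the log2 fold change was 1.67 (edgeR adjusted p = 0.00805). Adjusted p-values of this edgeR fit are not interchangeable with those of the main fit. Gria3 had 7.5e-14 here against 1.44e-06 there, and Grik4 had 0.163 against 0.056.

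Genes that make, carry and clear these transmitters gave 2 higher, 10 lower and 7 not passing of 19 tested (median log2 fold change -0.25). The called share was 63.2%, beside 39.5% of all genes tested (18.8% higher and 20.7% lower) and 47.0% of those at 5 CPM and over. With plain library totals 2 were higher and 9 lower. The list was chosen with earlier results of these data known, so its share is not an independent result about these genes. The 8 others of the list's 27 were under the filter. The 4 with the smallest p were amino acid transport and metabolism genes, of which Slc1a4 and Shmt2 have wider roles. Slc6a9, the glycine transporter gene GlyT1, stood at 13 ± 0.816 CPM in DS38 and 40 ± 3.12 CPM in DMSO (log2 fold change -1.61, edgeR adjusted p = 2.56e-12). Slc1a4, a neutral amino acid transporter gene, fell (log2 fold change -1.11, edgeR adjusted p = 7.15e-13), as did Shmt2, which makes glycine from serine in mitochondria (-0.90, edgeR adjusted p = 1.13e-12). Abat, the GABA-degrading transaminase gene, rose (0.44, edgeR adjusted p = 2.44e-06). Slc17a7, a vesicular glutamate transporter gene, had 15.8 ± 0.557 CPM in DS38 and 10.8 ± 0.291 CPM in DMSO (log2 fold change 0.55, edgeR adjusted p = 7.76e-06). The GABA-making genes were scarce, Gad2 with 0 counts and Gad1 with 0.379 and 0.662 CPM in DS38 and DMSO (edgeR adjusted p = 0.121).

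Genes for receptor auxiliary subunits and scaffolds gave 10 higher, 7 lower and 22 not passing of 39 tested (median log2 fold change 0.01). The called share of 43.6% was close to the 39.5% over all genes tested, and with plain library totals 13 were higher and 6 lower. The 9 others of the 48 were under the filter. Gphn, the gene of gephyrin, fell to 93.7 ± 3.86 CPM in DS38, against 133 ± 2.89 CPM in DMSO (log2 fold change -0.50, edgeR adjusted p = 2.42e-08). Cacng3, which encodes an AMPA receptor auxiliary protein, fell to 1.24 ± 0.238 CPM in DS38, against 4.72 ± 0.277 CPM in DMSO (log2 fold change -1.91, edgeR adjusted p = 5.26e-08). Olfm1, whose secreted product binds AMPA receptor complexes, rose (log2 fold change 0.43, edgeR adjusted p = 3.10e-07), as did Cbln1, the ligand gene of the delta receptors (0.50, edgeR adjusted p = 7.31e-07).

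Markers of other cell types were looked at in the same libraries, and their counts of calls stand beside 39.5% called over all genes tested (18.8% higher and 20.7% lower). The list for GABA interneurons and Purkinje cells summed to 45.3 to 53.8 CPM in DS38 and 23.7 to 26.7 CPM in DMSO. Of its 8 genes nearly all of the level was Pvalb (48.7 ± 3.64 CPM in DS38, 24.7 ± 1.43 CPM in DMSO), while Gad2 and Pax2 were at 0 counts and Slc32a1 and Calb1 at 1 each, and 1 of 2 tested members rose. The oligodendrocyte lineage list of 7 genes summed to 61.8 to 66.9 CPM in DS38 and 84.4 to 90.3 CPM in DMSO, mostly Pdgfra, with 4 counts of Sox10 over all libraries, and 1 of 5 tested members fell. The astrocyte list of 6 genes summed to 111 to 115 CPM in DS38 and 119 to 124 CPM in DMSO, mostly Slc1a3, with 1 of 3 tested higher and 1 lower. The 5 fibroblast and endothelial genes summed to 3.02 to 3.63 CPM in DS38 and 1.65 to 2.61 CPM in DMSO, with 1 of 3 tested higher, and microglial genes, with Cx3cr1 at 0 counts, to 0.251 to 0.52 CPM in DS38 and 0.153 to 0.381 CPM in DMSO, with none tested. The 7 mature granule neuron markers summed to 170 to 187 CPM in DS38 and 195 to 207 CPM in DMSO. Of 5 tested, 1 was higher and 2 were lower. Most of that level was Neurod1 and Etv1. Gabra6 and Grin2c were under the filter, with 1 and 16 counts over all libraries. Calb2 (9.98 ± 1.07 CPM in DS38, 38.2 ± 2.2 CPM in DMSO) and Etv1 (55.2 ± 4.74 CPM in DS38, 64.7 ± 3.46 CPM in DMSO) fell and Slc17a7 rose (edgeR adjusted p = 7.15e-13, 0.00421 and 7.76e-06), while Neurod1, at 94.3 ± 4.28 CPM in DS38 and 87.0 ± 4.75 CPM in DMSO, and Cbln3 did not pass. The 6 granule neuron progenitor markers, of the lineage given above as the origin of Hedgehog medulloblastoma, were all present. They summed to 1380 to 1430 CPM in DS38 and 1160 to 1210 CPM in DMSO, with 4 higher and 1 lower. Smallest in p were Atoh1, Mfap4 and Barhl1, which rose (log2 fold changes 0.60, 1.14 and 0.71), and Zic1, which fell (-0.16). With plain library totals the progenitor list gave 4 higher and 0 lower, the mature list 2 and 2, and the astrocyte list 1 and 0, and the other marker lists kept their counts. The part of any of these cell types in the receptor changes was not tested.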

How the data were processed

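Messenger RNA of 8 MB21 libraries, 4 DS38 and 4 DMSO, was sequenced by the submitters. The deposited table holds raw counts of reads per gene, not normalized by the authors, with each gene's length in bases. Tools listed in the submitters' processing notes are STAR 2.7.9a, Subread 2.0.3 with featureCounts, edgeR and R 4.1.0. Those notes list GRCm39, the mouse build, beside GRCh38.p13. How strand and multiply matching reads were handled is not given in the sources used here, so overlapping genes can share reads. Symbols, biotypes and exon overlaps came from GENCODE M21 (GRCm38), which named 52135 of 55416 identifiers, with no coordinates moved between builds.

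All genes were tested together with edgeR 4.0.16 (robust quasi-likelihood, TMM factors of 0.9753 to 1.032, filterByExpr minimum of 10 counts) in R 4.3.3, checked first on simulated data, and p-values were Benjamini-Hochberg adjusted over the 15133 genes kept. SE is the log2 fold change over the square root of F. RPKM is the TMM-adjusted CPM per kilobase. Alternatives used DESeq2 1.42.0, limma 3.58.1, other scalings and filters, a per-library offset on gene length, the replicate block and left-out libraries. Values by library are given for called genes and the 3 highest per class (all ionotropic glutamate genes being 1 class), and also for Grid2ip, Grik4, Grin1 and Gabrr2, chosen after their values were seen. Other genes are the 4 with the smallest p in a list and, named for their roles after their values were seen, Slc17a7, Gad1 and Gad2, and the tested mature granule neuron markers. Some genes of these families are not reported here and are left out of the members, their counts and their sums, but not of the fit. Members and lists were chosen with earlier results of these data known. Libraries of a group differed beyond counting noise (chi-square per degree of freedom 3.98 to 18.5), so none was merged.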

Additional observations from a re-analysis of the deposited data

Results flagged for a closer look

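In a group of 4 libraries, 1 library stood apart from the other 3 in 3 cases, by a gap past the critical value of Dixon's test. Gabrr1, which did not pass the test between groups, had 0.979 CPM in DMSO replicate 3, against 0.391 to 0.481 CPM in the other DMSO libraries. The summed level per length of the 7 metabotropic glutamate receptor genes was 0.439 RPKM in DS38 replicate 4, against 0.267 to 0.294 RPKM in the other DS38 libraries. The same sum was 0.13 RPKM in DMSO replicate 3, against 0.241 to 0.262 RPKM in the other DMSO libraries. Most of that sum is Grm7, for which these 2 libraries were also the highest of DS38 and the lowest of DMSO. In all 58 groups of 4 were examined, over 21 genes and 8 family sums, and chance alone would mark about 1 in 20, or 2.9.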

How the results depend on the processing

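Of the 7 called receptor genes, 5 (Gria3, Gabrb2, Grin2a, Grik2 and Glrb) kept their direction and stayed past the threshold under all 17 alternatives, with the highest adjusted p 0.0318, for Gabrb2. Grik3 was lost in 1 of its 16 and Gabbr1 in 2 of 17, as given above. With the replicate block, 4 members were higher and 3 lower, as without it, and the block changed no member's call. Deviations of same-numbered libraries correlated at 0.331, -0.0699, 0.067 and -0.0816 for replicates 1 to 4. In all, 3 of 8 libraries correlated best with their own number. These values are mixed, with the libraries numbered 1 the most alike, so they do not settle whether the numbers pair the samples. The number of GABA-B genes called ranged from 0 to 1 when a library was left out. The number of GABA-A genes called was 2 without a filter on low counts, with Gabrr2 added. Among genes that did not pass, Grid2ip passed in 5 of 17 alternatives (adjusted p 0.011 to 0.215 over all of them) and Grik4 in 3 of 17 (0.028 to 0.163).

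Log2 fold changes near 0 changed sign in 24 of 350 cases, none of them called on either side. With library totals alone they were 0.0448 for Gabrr1, 0.0278 for Gria4, 0.0191 for Grid1 and 0.0547 for Grik5. With the gene length correction they were 0.0381 for Gabrr1 and -0.0856 for Gria2. The others were 0.0216 for Gabrr1 with limma-voom, and, leaving out both libraries numbered 1, 0.107 for Gabrr1 and 0.0697 for Grik1. Gria2 had -0.00771 without a filter. Grik5 had 0.00103 with DESeq2's size factors, 0.00107 with the DESeq2 Wald test and 0.00956 with at least 50 counts in 4 libraries. Leaving out single libraries gave ranges of -0.238 to 0.338 for Gabrr1, -0.0499 to 0.0441 for Gria2, -0.0669 to 0.00642 for Gria4, -0.0914 to 0.00877 for Grid1 and -0.0308 to 0.0397 for Grik5. The cause of these sign changes was not tested. Few counts limit the scarce members, whose differences may not be detectable at this depth.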
